A study of Caenorhabditis elegans with 6 samples.

Results

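The str and srj genes of C. elegans, 232 protein-coding genes of which 193 are named str and 39 srj, were followed through peak lists of the GATA factor ELT-3. They are all genes with these names among the 19973 nuclear protein-coding genes of the WBcel235 assembly, and the other 19741 genes, on the same 6 chromosomes, are the background. The names str-257, str-258 and str-267 each stand for 2 annotated genes on V, counted separately, and none of these had a summit in any list. Whether reads can be placed uniquely at clustered genes of 1 family was not examined. ELT-3 was mapped by chromatin immunoprecipitation and sequencing in mixed-sex L3 larvae of strain OP75 (unc-119(ed3) III; wgIs75), a transgenic line that carries ELT-3 with GFP and FLAG at its C terminus. All samples are of this 1 group. The 6 libraries came from 4 biological replicates, numbered 1, 2, 4 and 5, and the 3 technical libraries of replicate 2 count once. The deposited lists are an optimal list of peaks that passed the authors' reproducibility threshold, and longer lists of peaks and background regions. The longer lists are a pooled list of 14525 entries from all replicates together and 1 list of 30000 entries per replicate. In the pooled list, 1746 entries had a deposited q-value of 0.05 or less. Its entries are all called pooled peaks below, so a gene called bound there can rest on a background region. The control came from another experiment and was not analysed here, and nothing in the labels says whether the replicates were separate cultures. A gene is called bound where a peak summit lies within 1000 bp upstream to 200 bp downstream of one of its annotated 5′ ends, a window called its promoter here. The families were chosen by their low counts in these same lists, so the counts are a description and no test was made of them.

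The str and srj genes encode seven-transmembrane receptors of the Str superfamily, to which srh, sri and srd genes also belong. Such receptors sit in the cilia of chemosensory neurons, where ligand binding acts through G proteins and cyclic GMP or lipid signals on ion channels. Their genes lie in clusters, mostly on chromosome V, and are usually expressed in few neurons. Well known members are str-1 of the AWB olfactory neurons, str-2 of 1 neuron of the AWC pair, str-3 of the ASI neurons and str-217, which is needed for the response to the repellent DEET. The diacetyl receptor gene odr-10 belongs to the same superfamily but not to these name classes. ELT-3 is a GATA factor of the epidermis, a tissue that is not neuronal.

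Sequences are shown for 5 of the 6 strongest str and srj summits of the pooled list and for 4 weaker ones with a GATA hexamer. The summits of str-31, second in signal, and str-94 also hold a hexamer but overlap annotated UTRs and are not shown. Each line below gives 101 bases of the ce11 (WBcel235) genome from NCBI RefSeq, 50 on either side of a pooled summit, on the strand of the gene. Capitals mark 4 GATA hexamers on either strand, namely TGATAA with its variant TGATAG and likewise AGATAA with its variant AGATAG. Read from the other strand, TGATAA is TTATCA and the site AGATAA is TTATCT. The windows are chrV:16100212-16100312 for str-7, chrV:1451036-1451136 for srj-23, chrV:4945168-4945268 for str-211, chrV:16672055-16672155 for str-61 and chrIV:8463244-8463344 for the strongest summit of str-176. Those shown for their hexamer are chrV:4956810-4956910 for str-208, chrIV:8464220-8464320 for the second summit of str-176, chrV:16075517-16075617 for srj-29 and chrV:8280737-8280837 for str-135.
str-7: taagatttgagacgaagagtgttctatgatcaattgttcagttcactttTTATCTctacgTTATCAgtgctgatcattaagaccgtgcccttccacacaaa
srj-23: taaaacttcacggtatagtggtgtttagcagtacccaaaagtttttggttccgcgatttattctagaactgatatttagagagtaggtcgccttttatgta
str-211: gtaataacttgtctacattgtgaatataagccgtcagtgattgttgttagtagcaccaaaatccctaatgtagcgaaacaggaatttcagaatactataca
str-61: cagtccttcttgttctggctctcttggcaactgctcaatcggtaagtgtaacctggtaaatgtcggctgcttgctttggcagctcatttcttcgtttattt
str-176 strongest summit: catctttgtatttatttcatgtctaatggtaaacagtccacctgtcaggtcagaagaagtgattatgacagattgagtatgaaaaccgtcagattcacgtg
str-208: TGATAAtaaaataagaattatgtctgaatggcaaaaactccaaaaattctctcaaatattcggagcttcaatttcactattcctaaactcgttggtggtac
str-176 second summit: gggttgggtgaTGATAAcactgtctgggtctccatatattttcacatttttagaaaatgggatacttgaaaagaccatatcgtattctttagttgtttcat
srj-29: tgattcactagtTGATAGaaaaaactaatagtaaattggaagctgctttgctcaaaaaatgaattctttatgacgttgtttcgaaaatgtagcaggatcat
str-135: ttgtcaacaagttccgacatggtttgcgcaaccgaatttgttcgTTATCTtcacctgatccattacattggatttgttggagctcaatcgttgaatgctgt
Of the 6 strongest summits, those of str-7 and str-31 had a hexamer within 50 bp, and the str-7 window held 2.

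None of the str and srj genes was bound in the optimal list. The count was 0 of 232 genes, against 590 of the other genes, or 2.99%. A count of 0 allows a share of up to 1.29% when set at 3 counts, and the 95% Wilson upper limit is 1.63%. On chromosome V, where 194 of the members lie, 0 members and 88 of 4800 other genes were bound (1.83%). Of 1070 genes of other chemoreceptor families, 7 were bound (0.654%), namely 4 srh genes and 1 each of sre, srv and srw. Since the optimal peaks were exactly the strongest peaks of the pooled list, what the optimal list lacks at these genes is a matter of rank.

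The pooled list held a summit at 19 str and srj genes. This was 8.19% of 232 (95% Wilson interval 5.31 to 12.4%), against 24.4% of the other genes. The 19 were 16 of 193 str genes (8.29%) and 3 of 39 srj genes (7.69%). Other genes on V were bound at 20.6%, and other chemoreceptor genes at 10.9%, a share inside the interval of the str and srj genes. Among the strongest 5000 pooled peaks, 6 members (2.59%) and 11.1% of other genes were bound. Intervals and limits here cover counting error only. In whole animals, binding in a few cells and weak binding in many cells cannot be told apart.

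Members were bound below other genes in 9 of 10 blocks of pooled rank, by most at the top. With the pooled peaks split by signal value into 10 blocks, strongest first, the members bound numbered 1, 2, 1, 2, 0, 0, 2, 4, 4 and 6. The shares of other genes were 4.05, 3.72, 2.98, 2.70, 2.58, 2.59, 2.50, 2.44, 2.36 and 2.35% in the same order. The strongest block thus held 0.431% of members against 4.05% of other genes, a ratio of 0.106. In the weakest block the shares were 2.59% of members and 2.35% of other genes, a ratio of 1.10 that rests on 6 genes. The replicate lists did not show this, since their weakest block had ratios of 0.550, 0.678, 0.549 and 0.670 in replicates 1, 2, 4 and 5, on 6 or 7 genes each. Their strongest block had ratios of 0.314, 0.145, 0.180 and 0.118. In the stronger 50% of the pooled list, 6 members (2.59%) were bound, against 14.6% of other genes, and in the weaker 50% it was 15 members (6.47%) against 11.6%, with str-176 and srj-23 bound in both. Other chemoreceptor genes were also scarce at the top of the pooled list, with 0.654% bound in the strongest block. They stood at 4.11% in its stronger 50% and 6.92% in its weaker 50%. A low share among the strongest pooled peaks was thus not particular to members. The counts per block are small, and the member share of the strongest block had a 95% Wilson interval of 0.0761 to 2.40%.

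**Figure D1:**
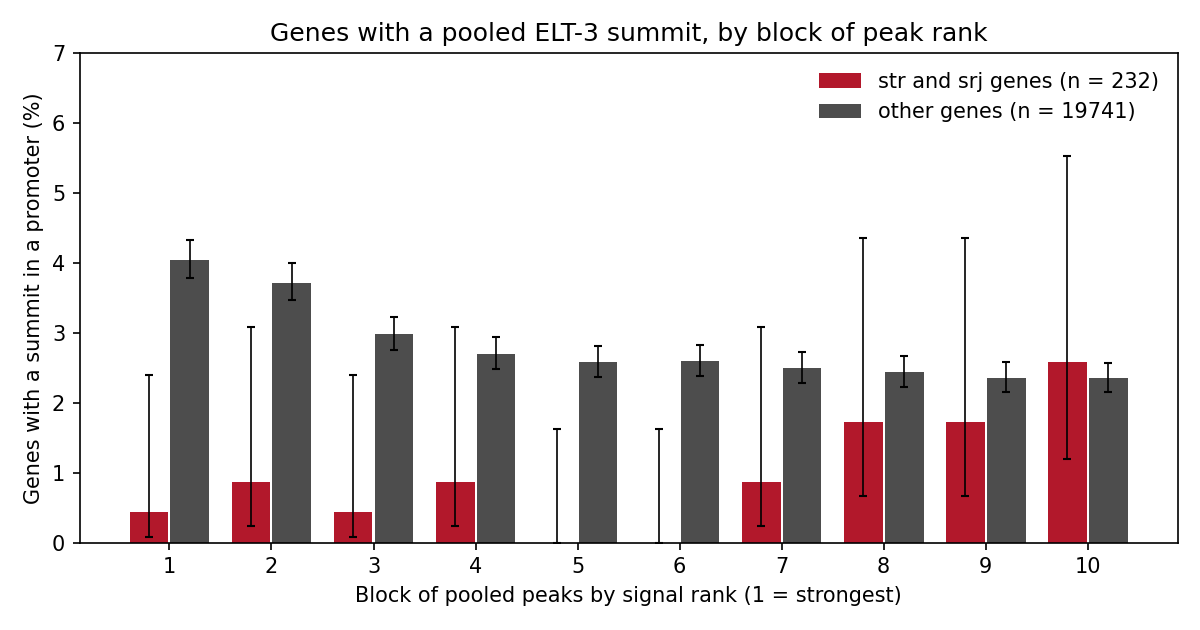
Share of genes with a summit in a promoter (percent, vertical axis) in each of 10 blocks of the pooled peaks by signal rank, strongest first, for 232 str and srj genes (left bar) and 19741 other genes (right bar), with 95% Wilson intervals. The member share is 0.431% in block 1 and 2.59% in block 10, and the other genes' share is 4.05% and 2.35% in the same blocks.

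Each replicate list alone held summits at more of these genes, and again at fewer than of other genes. In replicates 1, 2, 4 and 5, 63, 51, 54 and 58 of the 232 str and srj genes were bound, from 22.0% in replicate 2 to 27.2% in replicate 1. The other genes stood at 39.2, 38.6, 40.5 and 40.7% in the same order. The means were 24.4% ± 2.24 for str and srj genes and 39.8% ± 1.04 for other genes (SD, n = 4), and the ranges did not overlap. The members' range of 22.0 to 27.2% overlapped that of other chemoreceptor genes, 24.2 to 27.5% with a mean of 26.2% ± 1.42 (SD, n = 4). The str genes numbered 58, 44, 43 and 46 of 193 and the srj genes 5, 7, 11 and 12 of 39 in replicates 1, 2, 4 and 5.

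At the top of the replicate lists the members were scarcer. Among the strongest 5000 regions, 10, 3, 4 and 7 members were bound in replicates 1, 2, 4 and 5, or 4.31, 1.29, 1.72 and 3.02%. The other genes were at 8.65, 9.24, 10.7 and 11.0%. Over the replicates this averaged 2.59% ± 1.36 for members and 9.90% ± 1.14 for other genes (SD, n = 4). Among as many of the strongest regions as the optimal list holds, the member counts were 0, 0, 1 and 0, against shares of 2.15, 2.44, 2.91 and 2.75% of other genes. The 1 gene was str-7 in replicate 4, at rank 507.

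**Figure D2:**
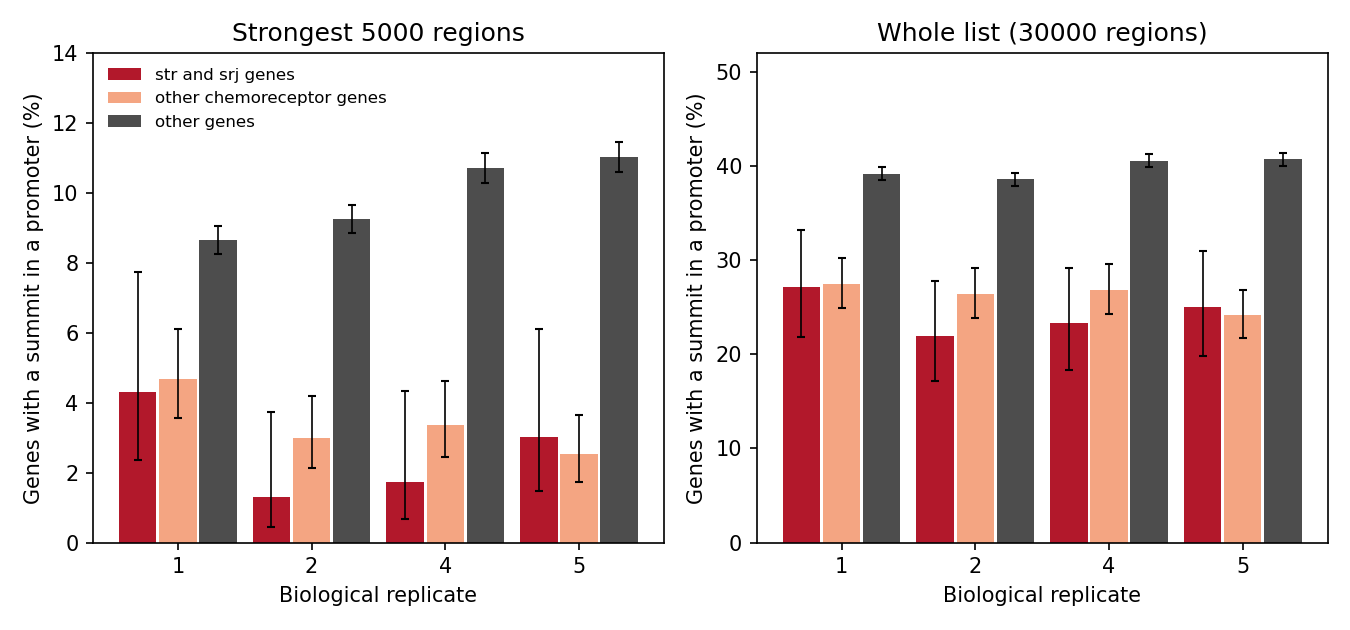
Share of genes with a summit in a promoter (percent, vertical axis) in each biological replicate, for str and srj genes, other chemoreceptor genes and other genes, left to right, with 95% Wilson intervals, in the strongest 5000 regions (left panel) and whole lists (right panel). In whole lists the str and srj genes lie between 22.0 and 27.2% and the other genes between 38.6 and 40.7%.

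Few members were bound in several replicates. Of the 232 genes, 82 were bound in no replicate list, 91 in 1, 46 in 2, 9 in 3 and 4 in all 4. A summit in at least 1 replicate list was found at 150 members (64.7%) and at 76.5% of other genes, while a summit in all 4 lists was found at 1.72% of members and 9.68% of other genes. Among genes bound in any replicate list, 60.7% of members and 37.2% of other genes were bound in 1 list only. Other chemoreceptor genes were close to the members here, with 54.4% in 1 list only and 1.87% of all in 4 lists. Matching by position gave the same order. Between pairs of replicates, 3.45 to 10.9% of member summits had a partner within 100 bp, against 14.5 to 24.6% of summits at other genes. A lower share of genes and fewer summits per list alone lower both the overlap and the matching. Their part in these values was not tested.

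**Figure D3:**
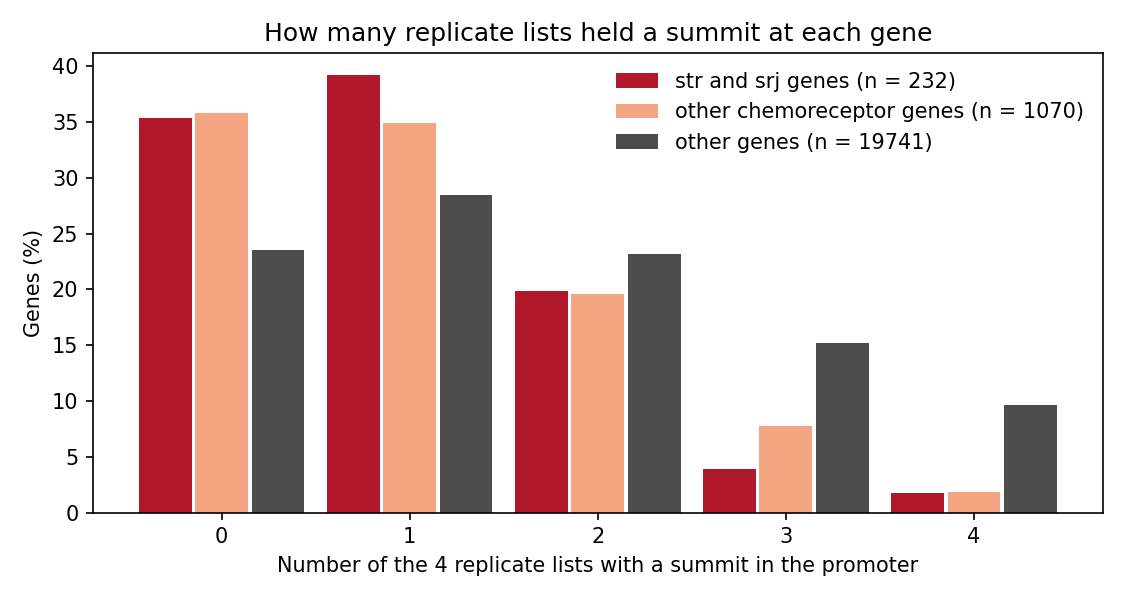
Share of genes (percent, vertical axis) with a summit in 0, 1, 2, 3 or 4 of the replicate lists (horizontal axis), for 232 str and srj genes, 1070 other chemoreceptor genes and 19741 other genes, left to right. In all 4 lists the bars stand at 1.72, 1.87 and 9.68%.

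The strongest summit at any member was that of str-7 (WBGene00006075, V, minus strand). It had rank 1128 of the pooled list with signal 38.7, just below the lowest signal of the optimal list, 39.9. The summit lay 721 bp upstream of str-7, between genes, and nearer to the 5′ end of cth-1, the gene of a cystathionine gamma-lyase, at 418 bp. Its deposited −log10 q-value was 2.03, which corresponds to a q-value under 0.05, and no other pooled summit at a member reached that level. At that level 1 member (0.431%) and 4.76% of other genes were bound in the pooled list. In replicates 1, 2, 4 and 5 the strongest str-7 summit had signal 4.48, 7.08, 22.8 and 9.31, at ranks 29127, 5978, 507 and 2008. Only in replicates 4 and 5 was that summit within 100 bp of the pooled one. Replicate 2 had a second summit there that did match, at rank 28853 near the end of its list, and replicate 1 had no match.

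The next members were str-31 and srj-23. The summit of str-31 (WBGene00006097, V) had pooled rank 2828 and signal 27.1 and lay 42 bp upstream, in a window shared with nhr-172, which encodes a nuclear hormone receptor. A GATA hexamer lay within 50 bp of it. Only replicate 5 had a summit at str-31, at rank 4445 with signal 6.81. At srj-23 (WBGene00005611, V) the pooled list had summits at rank 2893, 548 bp upstream with signal 26.9, and at rank 11246, 166 bp downstream in its own exon. The upstream summit was shared with cnc-2, which encodes an antimicrobial peptide of the caenacin family known from the epidermis. All replicates had a summit at srj-23, with signal 10.3, 7.24, 7.10 and 5.69 and ranks 2381, 5523, 13108 and 7041 in replicates 1, 2, 4 and 5.

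The other 3 members of the stronger 50% of the pooled list were str-211, str-61 and str-176. The str-211 summit (WBGene00006244, V, rank 4312, signal 23.5) lay 899 bp upstream, shared with no other gene, and only replicate 4 had one, at rank 6436. The str-61 summit (WBGene00006125, V, rank 4414, signal 23.4) lay 815 bp upstream, inside an intron of F14F8.8 and 193 bp from the 5′ end of that gene. Every replicate had a summit at str-61, at ranks 7377, 13711, 7108 and 13020 in replicates 1, 2, 4 and 5. The gene with the most pooled summits was str-176 (WBGene00006220, IV), with 3, at ranks 4717, 11143 and 14520 and signals 22.9, 17.4 and 15.8. The strongest lay in its own intron, 969 bp upstream of one of its 5′ ends, and none was shared with another gene. Replicates 4 and 5 each had 3 summits there, with best ranks of 1910 and 15037, while replicate 2 had 1 at rank 11335 and replicate 1 none. Of these 6 leading summits, 4 lay in the window of a gene that is not a member, at str-7, str-31, srj-23 and str-61.

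Sharing was common among all pooled member summits. The 19 genes had 21 summits, of which 12 lay in the window of 1 gene only, 8 were shared with a gene outside the families and 1 was shared by str-13 and str-33. Thus 42.9% of pooled member summits were shared by several genes, against 15.5% of summits at other genes. In replicates 1, 2, 4 and 5 the member shares were 12.9, 20, 17.2 and 16.4%. Summits at other genes stood at 12.2, 12.6, 12.9 and 12.6% in the same order. The pooled share rests on 9 of 21 summits, and an excess of that size was not seen in the replicate lists. For 5 of the 21 pooled summits, the nearest 5′ end was that of another gene: cth-1, F14F8.8, srh-190, ptd-2 and nhr-290. Counting only pooled summits in the window of no other gene left 10 members bound (4.31%), against 17.7% of other genes. By place, 13 of the 21 were intergenic, 3 intronic and 5 exonic, all 5 in the exon of the member itself.

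The remaining members of the pooled list were all in its weaker 50%. They were str-208 (rank 9385, 31 bp downstream), str-247 (9761), str-68 (10581), str-229 (10956, nearer to srh-190), srj-29 (12603, shared with F14H3.12), str-13 and str-33 (both 12784), str-231 (13021), str-94 (13403, 43 bp from ptd-2), str-135 (13471), srj-20 (13879, nearer to the nuclear hormone receptor gene nhr-290), str-2 (14127) and str-171 (14454). Their signals lay between 15.8 and 18.4, in a list whose lowest value was 15.8. The best-known of them, str-2, had its summit 67 bp downstream of its 5′ end in its own exon, with signal 16.0. Replicates 1 and 5 had a summit at str-2, at ranks 15764 and 28161, and replicates 2 and 4 had none. All 19 pooled members were bound in at least 1 replicate list, and 3 of them, str-7, srj-23 and str-61, in all 4. The pooled list comes from the same replicates, so this is no separate support. At least 1 replicate list held a summit at 64.7% of all members and 76.5% of other genes, bound in the pooled list or not.

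**Figure D4:**
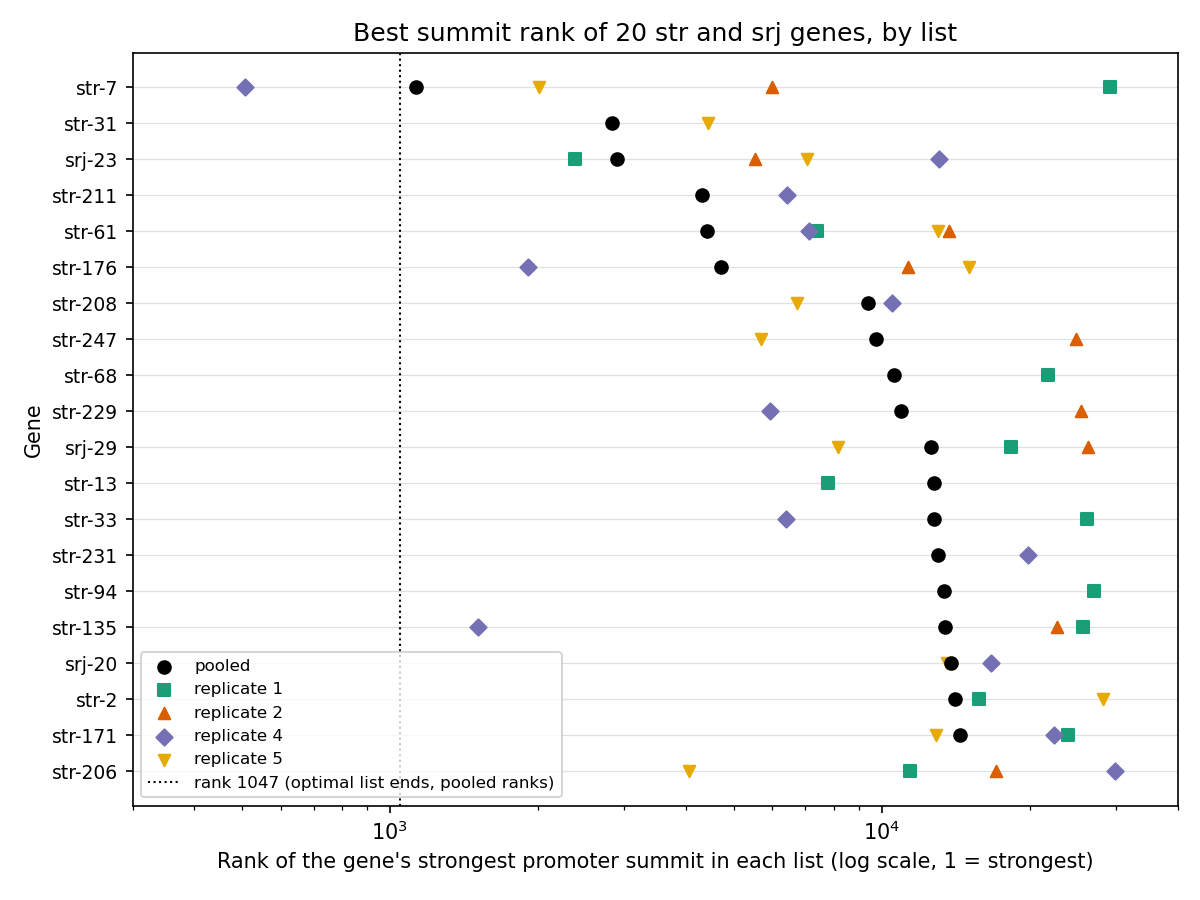
Rank of the strongest promoter summit (horizontal axis, log scale, 1 is strongest) for the 19 members bound in the pooled list and for str-206, in the pooled list (black) and in replicates 1, 2, 4 and 5 (coloured). A missing symbol means no summit in that list. All pooled ranks lie beyond the end of the optimal list (dotted line), and only the str-7 summit of replicate 4, at rank 507, lies before it.

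The pooled summits were matched in few replicates. Of the 21 summits, 10 had a replicate summit within 100 bp in 1 replicate, 6 in 2, 5 in 3 and 0 in all 4, against 6.37% in all 4 for summits at other genes. That contrast moved with rank. Among the strongest 5000 pooled peaks it was 0 of 6 member summits against 15.1% at other genes, and in the weaker 50% of the list 0 of 15 against 0.0936%. The median rank was 11143 at members and 6257 at other genes. Apart from the pooled genes, str-206 was bound in all 4 replicate lists, at ranks 11413, 17071, 29840 and 4064 in replicates 1, 2, 4 and 5, but not in the pooled list. The sensory neuron genes str-1 and str-3 were bound in no list. A summit at str-217 was present in replicates 4 and 5, at ranks 11110 and 12216, and in no other list. The non-member odr-10 had one in replicates 2 and 4, at ranks 1762 and 16046, and none in the optimal and pooled lists.

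The strongest member differed in every replicate. It was str-112 in replicate 1 (rank 1350, 11 bp downstream, in its exon), str-45 in replicate 2 (rank 1071, 36 bp upstream), str-7 in replicate 4 (rank 507) and str-10 on X in replicate 5 (rank 1371, 471 bp upstream). Except for str-7, these genes were chosen after their values were seen, and each was bound in 1 replicate list only and not in the pooled list.

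The summits at members did not gather at their 5′ ends as they did at other genes. In the pooled list, the 200 bp just upstream of a 5′ end held 1.21 summits per 100 ends of members and 6.15 per 100 ends of other genes. In the next 200 bp upstream it was 0.403 for members and 5.01 for other genes, and in the first 200 bp downstream 2.02 for members and 3.64 for other genes. Other chemoreceptor genes had 2.58, 2.49 and 1.38 in the same 3 bins. In replicates 1, 2, 4 and 5, the 200 bp just upstream held 3.63, 4.03, 3.63 and 3.63 summits per 100 ends of members and 7.47, 7.84, 9.55 and 9.54 per 100 ends of other genes. Members were lower than other genes in that bin in every replicate. Other chemoreceptor genes had 4.30, 4.90, 4.73 and 4.13 there, so low values just upstream were not particular to members. In the farthest bin, 1801 to 2000 bp upstream, members had 4.84, 6.05, 5.65 and 7.26 and other genes 6.16, 6.61, 6.33 and 6.33. In the bin beside it, 1601 to 1800 bp upstream, members had 4.03, 3.63, 4.44 and 5.24. Other genes had 6.07, 6.44, 6.42 and 6.45 there, so low member values were not confined to the 5′ end. The member counts behind these values are small, with 3 pooled summits and 9 or 10 per replicate in the bin just upstream.

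**Figure D5:**
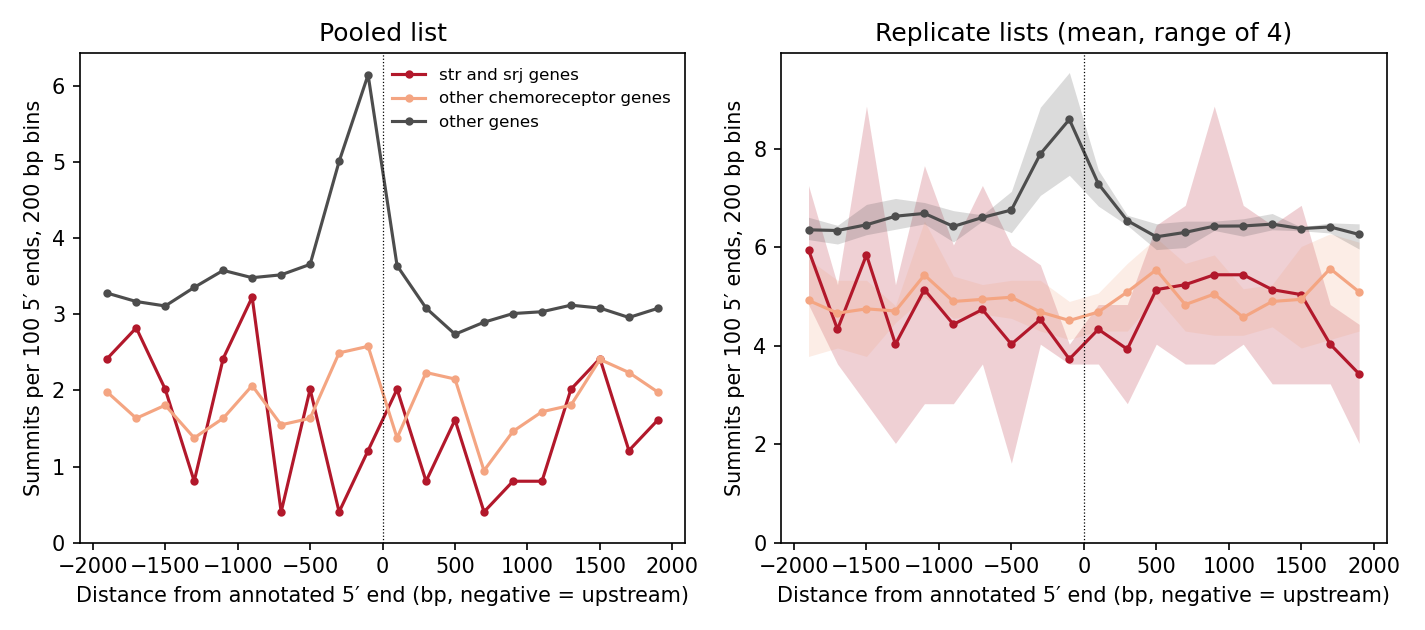
Summits per 100 annotated 5′ ends in bins of 200 bp (vertical axis) by distance from the 5′ end (horizontal axis, bp, negative upstream), for str and srj genes, other chemoreceptor genes and other genes, in the pooled list (left panel) and as the mean with the range of the 4 replicate lists (right panel). Just upstream of the 5′ end the pooled values are 1.21 for str and srj genes and 6.15 for other genes.

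Per length of sequence, member promoters held fewer summits than the genome as a whole in the pooled list. The density was 7.37 summits per 100 kb of member windows, against 18.8 in windows of other genes, 9.26 in those of other chemoreceptor genes and 14.5 over the nuclear genome. In replicates 1, 2, 4 and 5 the member windows held 24.6, 19.3, 20.4 and 23.5 summits per 100 kb and the windows of other genes 32.8, 33.3, 35.1 and 35.5, with 29.9 over the genome. Windows of other chemoreceptor genes held 24.4, 23.6, 24.1 and 21.4 in the same order. Member windows were slightly poorer in G and C, with a median GC content of 33.4%, against 35.1% in windows of other genes. Member genes also had fewer annotated 5′ ends, since 93.5% of them and 73.5% of other genes had 1. Other chemoreceptor genes were like the members in both, with a median GC content of 33.2% and 92.5% with 1 5′ end. The pooled share of 8.19% of members stood against 20.2% of other genes with 1 5′ end. The part of GC content and of the number of 5′ ends in these counts was not tested otherwise.

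Member promoters held about as many GATA hexamers as other promoters. The mean was 3.05 sites per member window and 3.08 per window of other genes, with a median of 3 in both, and TGATAA alone averaged 1.35 in member windows and 1.39 in other windows. At least 1 of the 4 hexamers spelled out above, on either strand, was present in 94.0% of the 248 member windows of 1201 bp and in 93.0% of the 29066 windows of other genes. TGATAA, which is 1 of these hexamers, was present in 68.5% of member windows and 71.6% of other windows. The E-box CACGTG was present in 20.6% of member windows and 18.8% of other windows. The E-box CACCTG was present in 53 of 248 member windows (21.4%) and 7860 of 29066 other windows (27.0%). Windows of other chemoreceptor genes held CACGTG in 16.5% and CACCTG in 40.0% of cases. Such matches describe the letters of the windows and not bound sites.

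At the summits themselves, GATA hexamers were about as common at members as elsewhere. Within 50 bp of the pooled summit, 7 of 21 member summits (33.3%, 95% Wilson interval 17.2 to 54.6%) and 27.1% of summits at other genes held one. The 7 lay at str-7, str-31, str-208, str-176, srj-29, str-94 and str-135. TGATAA alone was found at 3 of 21 (14.3%) and at 13.9% of summits at other genes, the 3 being those of str-7, str-208 and the second summit of str-176. The median GC content around the pooled summits was 35.6% at members and 39.6% at other genes. The part of GC content in the hexamer shares was not tested. In replicates 1, 2, 4 and 5 a hexamer lay at 12 of 70, 11 of 55, 15 of 58 and 21 of 67 member summits, and at 21.3, 21.8, 24.8 and 25.1% of other summits. The member share was lower in replicates 1 and 2 and higher in 4 and 5. The shares of summits in exons were 41.4, 45.5, 36.2 and 31.3% at members and 34.1, 34.2, 33.9 and 32.6% at other genes in the same order.

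The members lie close together, mostly on V, where other genes were also bound below the share of the whole genome. Of 232, 194 are on V, 29 on IV, 5 on X, 2 on III and 1 each on II and I, and 137 (59.1%) lie within 5000 bp of another member, with a median gap of 2222 bp. When each chromosome is split into 3 equal lengths, 176 members lie in the outer 2 and 56 in the middle one. On V, 18 of 194 members (9.28%) and 20.6% of other genes were bound in the pooled list. In the left, middle and right lengths of V the member shares were 10.6, 8.33 and 8.20%, against 19.8, 25.4 and 16.1% of other genes. In the replicate lists the right length of V did not keep this order in every case. Its 61 members were bound at 36.1, 27.9, 27.9 and 24.6% in replicates 1, 2, 4 and 5, against 28.6, 30.1, 33.0 and 32.5% of other genes there, so that members were higher in replicate 1. On IV it was 1 of 29 members (3.45%) against 21.8% of other genes. On the other 4 chromosomes it was 0 of 9 members, too few to compare. Other genes stood at 28.4, 23.4, 27.4 and 28.1% on I, II, III and X. With other genes weighted to the chromosomes of the members, their pooled share was 21.1%, and weighted by chromosome and length of chromosome, 20.5%.

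Within the Str superfamily, str genes were bound at 8.29% and srj genes at 7.69% in the pooled list, against 15.5% for srh, 11.5% for sri and 11.9% for srd. The Sra, Srg and remaining families stood at 5.65, 9.71 and 10.7%. The sra genes, with 0 of 35, were the only chemoreceptor family counted here without a pooled summit. In the mean over replicates the str genes were at 24.7%, srj at 22.4%, srh at 28.3%, sri at 31.6% and srd at 19.4%. The str and srj values lay within the range of the other chemoreceptor families in both.

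Genes of chemosensory neurons, from signalling genes to regulators of gene expression and the receptor gene odr-10, gave mixed counts. Of 31 such genes, 1 (3.23%, against 2.99% of other genes) was bound in the optimal list, unc-43, which encodes the calcium and calmodulin dependent kinase II (rank 449). In the pooled list it was 10 of 31 (32.3%, against 24.4% of other genes): unc-43, kin-29 (rank 1507), a kinase that regulates chemoreceptor gene expression, egl-4 (rank 2117), the cyclic GMP dependent kinase, tir-1 (rank 5389), ceh-37 (9136), mef-2 (10698), gpa-3 (13279), unc-3 (13643), grk-2 (13649) and osm-9 (14340). The replicate lists held 13, 15, 16 and 16 of them in replicates 1, 2, 4 and 5, or 41.9 to 51.6%, against 38.6 to 40.7% of other genes. Several of these genes are also active outside sensory neurons. The 8 of the 31 used as sensory neuron markers were bound at 1 of 8 in the pooled list (12.5%) and at 3, 4, 5 and 3 of 8 in replicates 1, 2, 4 and 5.

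Small fixed sets of epidermal and sensory neuron genes were counted in the same lists. Of 9 epidermal genes, 5 were bound in the optimal list (dpy-10, dpy-2, sqt-1, nhr-23 and nhr-25) and 7 in the pooled list. Of the rest, col-19 was bound in no list and elt-1 in replicates 4 and 5 only. Of the 8 sensory neuron genes, 0 were bound in the optimal list and 1, osm-9, in the pooled list. Other genes as a whole stood at 2.99 and 24.4% in the optimal and pooled lists. In the mean over replicates the epidermal genes were at 80.6%, the sensory neuron genes at 46.9% and other genes at 39.8%. The sets are too small for a conclusion on tissue. The tagged gene elt-3 itself was bound at rank 175 of the optimal list. The part of the transgene's own copy in that peak was not tested.

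The members nearest to the limits of the window show how the limits act on single genes. Upstream, the last pooled summit inside belonged to str-176, 969 bp from a 5′ end (rank 4717), and the first outside to str-162, at 1070 bp (rank 6466). Downstream, the last inside was that of srj-23 at 166 bp (rank 11246) and the first outside that of str-12 at 258 bp (rank 9014). With a window of 2000 bp upstream and 500 bp downstream, 1 member, str-144 on V, was bound in the optimal list, at rank 189 with signal 70.9. No list held a summit within the narrower window at str-144.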

How the data were processed

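ELT-3 ChIP-seq peak lists of L3 larvae were analysed on the ce11 build, which is the WBcel235 assembly, with Ensembl release 115 gene models. The 6 libraries form 1 group of 4 biological replicates. The list used for replicate 2 was assigned from the deposited listings of its 3 libraries. According to the deposited listings' headers, the authors called peaks and background per replicate and on the pooled replicates, against a control from another experiment, and thresholded the pooled list by irreproducible discovery rate. The signal value deposited for each peak is the authors' measure of its strength, used here only to rank peaks of 1 list. The deposited −log10 q-value per peak was used for description. The summit offset, another deposited column, gave each summit's position. The aligner and the peak caller were not given in the sources used here, and the depth is unknown.

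Genes named str or srj were taken from the annotation. A summit lying in more than 1 gene's window counted for all of them. Shares have Wilson 95% intervals. Hexamers were searched within 50 bp of summits, and summits were matched between lists within 100 bp. Summits of the other genes leave out those also at members where the 2 sets of summits are compared. The assignment of summits to genes was checked on simulated data. Scripts used Python 3.11.15, NumPy 2.4.6 and SciPy 1.17.1. The genes named are the members with the highest pooled signal, up to 20, those bound in all 4 replicate lists, those with the most pooled summits, str-1, str-2, str-3 and str-217, summits at the window limits, and genes sharing a summit. The members, lists and rules were chosen with earlier results of these data known. Alternatives were other windows, the nearest 5′ end, overlap by any base, shorter lists, other backgrounds, other matching distances, other motif settings, other numbers of blocks and leaving out each replicate. Leaving out shared summits, the q-value limit and weighting by chromosome and length of chromosome were added after seeing the data.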

Additional observations from a re-analysis of the deposited data

Results flagged for a closer look

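Among 13 counts, shares and medians compared over the 4 replicates, 1 had a replicate far from the others. Among as many of the strongest regions as the optimal list holds, replicate 4 held 1 str or srj gene, str-7 at rank 507, and the other 3 replicates held 0. The spread rule used here is made for continuous values, and in counts this small a single gene is enough to meet it.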

How the results depend on the processing

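In every setting with a different window, list length or background, a smaller share of str and srj genes than of other genes was bound. With 500 bp upstream to 100 bp downstream, the pooled list held 10 members (4.31%, other genes 16.4%). The replicate mean was 31 (13.4%, other genes 25.4%). With 2000 bp upstream to 500 bp downstream, the pooled count was 41 (17.7%, other genes 36.5%) and the replicate mean 107.75 (46.4%, other genes 59.7%). The optimal count was then 1 in place of 0 (0.431%, other genes 4.24%). The stronger 50% of the pooled list held 6 members, peaks with a q-value of 0.05 or less 1, and summits shared with no other gene 10, in place of 19. The other genes were at 14.6, 4.76 and 17.7% in the same order, in place of 24.4%. Against other chemoreceptor genes only, the pooled difference was -2.74 percentage points in place of -16.2. In whole replicate lists, members stood at 27.2, 22.0, 23.3 and 25% in replicates 1, 2, 4 and 5. Other chemoreceptor genes stood at 27.5, 26.4, 26.8 and 24.2%, so members were higher in replicate 5. Shortening replicate lists to 5000 or 10000 regions gave means of 6 and 17.25 in place of 56.5, with other genes at 9.90 and 17.1% in place of 39.8%. Leaving out 1 replicate gave means of 54.3 to 58.3, and 0 to 3 members with a pooled summit matched in all the replicates left, in place of 0. Of other genes bound in the pooled list, 10.6 to 16.3% then had such a match, in place of 7.86%. With TGATAA alone, 14.3% of member summits held the motif, in place of 33.3%, and 13.9% of summits at other genes, in place of 27.1%. With 5 blocks, the difference in the strongest block was -6.19 points in place of -3.62, and in the weakest block -0.34 in place of 0.24, a change of sign within counting error. No paired analysis was possible because there is 1 group. Unknown depth and the small counts per block limit all of these values.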
